A study of Homo sapiens with 9 samples.

Results

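Mitochondrial ribosomal protein genes carry symbols that begin with MRPL or MRPS and a number. All such genes of the platform annotation that had a probe set naming no other gene were taken, which gave 65 of the 14207 genes tested, 42 with an MRPL symbol and 23 with an MRPS symbol. Their protein products are made in the cytosol, imported into the mitochondrion and assembled with mitochondrially encoded RNA into a large and a small ribosomal subunit. That ribosome translates only the messages of mitochondrial DNA, all of which encode core subunits of the respiratory chain and ATP synthase. The retinal pigment epithelium, which supports the photoreceptors, relies heavily on mitochondrial respiration.

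The cells came from the established human line ARPE-19, derived from retinal pigment epithelium, and were read on exon arrays whose deposited values are log2 signals, 1 per transcript. There were 3 groups of 3 arrays: vehicle control, 100 µg/ml and 250 µg/ml cigarette smoke condensate. Per the labels, the condensate was a commercial preparation from standard research cigarettes dissolved in DMSO, and all cells were grown to confluence with serum and then held in medium with albumin. The sources used here do not give the length of treatment. Mitochondrial dysfunction under oxidative stress is part of the subject that the title of the series names. Arrays carry numbers 1 to 3 within a group, but no label says that they are separate cultures, so p-values reflect the spread of these samples alone, and that spread may be technical.

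By their place in the ribosome, 43 members belong to the large subunit and 22 to the small subunit. Of the large-subunit proteins 25 are listed with bacterial relatives and 18 as mitochondrial only. In the small subunit these numbers are 12 and 10. The second label is that of the list and does not exclude relatives in bacteria. MRPS30 sits in the large subunit despite its symbol and is counted there. The names MRPL3, MRPL42P5, MRPL45, MRPL45P2, MRPL53, MRPL57, MRPL9, MRPS12, MRPS18A, MRPS18C, MRPS28 and MRPS6 appeared only on probe sets that also name another gene, and MRPL20 and MRPL36 were not analysed here. Mean log2 signals of the members ran between 3.60 and 10.5, with 29 members above the upper quartile of all gene means (6.71) and 3 below their median (4.65).

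Across the series, array medians lay between 4.42 and 4.59, with vehicle replicate 1 lowest. Of 15 measured markers of retinal pigment epithelium 7 lay above the median of all gene means (MITF, OTX2, KRT8, KRT18, TYRP1, RDH5 and PMEL). The defining visual cycle genes RPE65 (2.49) and RLBP1 (2.96) and the channel gene BEST1 (2.75) were below the lower quartile of all gene means (3.06). Above that median were 0 of 4 endothelial, 0 of 3 photoreceptor, 1 of 7 fibroblast (PDGFRB) and 1 of 4 leukocyte markers (CD68). The epithelial markers had lower means than vehicle in 14 of 15 cases at 100 µg/ml and 12 of 15 at 250 µg/ml, where 59.2% and 57.3% of all genes did. All 18 markers of the other 4 cell types also had lower means at 100 µg/ml, and 14 of 18 did at 250 µg/ml. The 8 DNA replication genes had median changes of 0.88 and 0.47 log2 units, and 0.54 and 0.08 without vehicle replicate 2, where their median deviation from their own means was -1.18. 0 of these markers and replication genes passed the test described below, and their part in the results was not tested.

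The choice by symbol did not use promoter sequence. RefSeq promoter windows of GRCh38.p14, which run 250 bases before to 50 bases after each start site, were found for 58 of 65 members, in 73 windows. The motif CCGGAAG, a binding sequence of ETS factors such as GABP, was present on either strand in 35.6% of the members' windows, against 12.7% of 16409 windows of genes tested and 10.3% of all 35116 windows. For AAGATGG, the core sequence bound by YY1, the shares were 28.8%, 5.99% and 5.84%. For GCGCA and GCGC with any 1 base between, bound by the respiratory gene regulator NRF1, they were 9.59%, 7.64% and 5.78%, and for TGACNNNGC, the antioxidant response element bound by NRF2, they were 12.3%, 14.1% and 13.3%. The last 3 letters of CCGGAAG are the first 3 of AAGATGG, so 1 stretch can match both. A match is a description of the sequence, not a site of binding. Shown here are the 250 bases before the start of 4 genes whose values are given in full below, and of a gene that faces another member head to head. Capitals mark motif matches, on either strand, and all 5 stretches lie on the plus strand. The labels count matches in these 250 bases of 1 start site, while the shares above use every whole window. MRPL52 also has a match to CCGGAAG in its whole window, and so does a window of MRPL18.
MRPL18 (chr6:159789562-159789811, first of 3 start sites, no match): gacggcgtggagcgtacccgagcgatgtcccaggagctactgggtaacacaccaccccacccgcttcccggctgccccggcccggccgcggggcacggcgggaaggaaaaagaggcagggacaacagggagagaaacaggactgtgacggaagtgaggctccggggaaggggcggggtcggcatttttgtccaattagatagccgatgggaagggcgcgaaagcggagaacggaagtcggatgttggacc
MRPL52 (chr14:22829637-22829886, 2 matches to AAGATGG): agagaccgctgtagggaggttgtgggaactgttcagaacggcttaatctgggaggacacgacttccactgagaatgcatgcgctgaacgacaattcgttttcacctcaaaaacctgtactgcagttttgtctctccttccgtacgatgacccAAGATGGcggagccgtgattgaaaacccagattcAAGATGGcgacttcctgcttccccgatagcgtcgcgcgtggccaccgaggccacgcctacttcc
MRPS22 (chr3:139343744-139343993, first of 3 start sites, CCGGAAG on both strands): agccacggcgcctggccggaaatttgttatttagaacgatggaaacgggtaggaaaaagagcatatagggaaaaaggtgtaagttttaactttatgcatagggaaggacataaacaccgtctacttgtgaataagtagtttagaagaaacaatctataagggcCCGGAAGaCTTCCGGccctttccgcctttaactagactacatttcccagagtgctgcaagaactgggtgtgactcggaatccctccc
MRPS9 (chr2:105037819-105038068, 1 match to the NRF1 motif): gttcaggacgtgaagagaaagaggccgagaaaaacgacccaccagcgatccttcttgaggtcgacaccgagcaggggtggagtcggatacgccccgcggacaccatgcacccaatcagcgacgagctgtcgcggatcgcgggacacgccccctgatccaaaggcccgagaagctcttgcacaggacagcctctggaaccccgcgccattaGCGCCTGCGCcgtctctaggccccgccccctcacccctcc
MRPS11 (chr15:88467458-88467707, no match): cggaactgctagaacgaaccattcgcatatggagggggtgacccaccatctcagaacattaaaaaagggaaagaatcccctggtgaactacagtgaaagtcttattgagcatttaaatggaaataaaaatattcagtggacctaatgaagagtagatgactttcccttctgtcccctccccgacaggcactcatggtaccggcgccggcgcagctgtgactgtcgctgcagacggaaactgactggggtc
The start of MRPS11 lies 320 bases from that of MRPL46 on the other strand, so the printed stretch falls between 2 members. A protein-coding gene starting within 1000 bases in the opposite direction was found for 17 of 58 members (29.3%), against 12.9% of 11371 genes tested. The median GC content was 60.0% in the members' windows and 63.0% in those of genes tested.

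The first comparison asked which of these genes differed at 100 µg/ml condensate, set against vehicle. MRPL39, MRPL51, MRPL1, MRPS17 and MRPL41 had the highest mean changes, between 0.78 and 0.52 log2 units, and MRPL54, MRPS25, MRPL33, MRPS34 and MRPL52 the lowest, between -0.92 and -0.36. With limma over all 14207 genes, 0 of 65 members passed an adjusted p of 0.05, where 0.0633% of all genes did. At an unadjusted p under 0.05 there were 4 members, of which MRPL1, MRPL18 and MRPL39 were higher and MRPL52 lower, which is 6.15% of members against 14.6% of all genes (7.0% higher and 7.65% lower). With the replicate number as a block there were 9 (13.8%, against 17.1% of all genes). Of these, 5 were higher and 4 lower, where 7.8% of all genes were higher and 9.27% lower. The 3 treated arrays lay wholly above or below the 3 vehicle arrays for 3 members (MRPL1 and MRPL18 above, MRPL52 below), 4.62% against 18.3% of all genes (6.41% above and 11.9% below). Mean values were higher than in vehicle for 39 of 65 members (60.0%, against 40.8% of all genes), with a median change of 0.11 log2 units, against -0.05 over all genes. MRPL18 is named here after its values were seen.

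At 250 µg/ml the highest mean changes were those of MRPL39, MRPL22, MRPL30, MRPS9 and MRPL47, between 0.72 and 0.52 log2 units, and the lowest those of MRPL54, MRPS24, MRPL33, MRPL21 and MRPL17, between -0.92 and -0.40. Again 0 of 65 members passed the adjusted p of limma, where 0.549% of all genes did. An unadjusted p under 0.05 was reached by 5 members, all higher (MRPL18, MRPL38, MRPL39, MRPS22 and MRPS9), or 7.69% against 16.6% of all genes (8.74% higher and 7.9% lower). With the replicate number as a block there were 13 (20.0%, against 19.5% of all genes). Of these, 10 were higher and 3 lower, where 10.1% of all genes were higher and 9.42% lower. Arrays did not overlap between dose and vehicle for 6 members, 9.23% against 22.9% of all genes (8.61% above and 14.3% below). MRPL16, MRPL18, MRPL42, MRPS22 and MRPS9 lay above vehicle and MRPL44 below, and of the genes in these sentences MRPL16, MRPL18, MRPL38 and MRPL42 were named after their values were seen. Means were higher for 45 of 65 members (69.2%, against 42.7% of all genes), with a median change of 0.13 against -0.04 over all genes. Both doses share the same vehicle arrays, so their changes are not independent of each other.

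The precision of these changes differed by gene. The 95% confidence interval of the change lay within 1 log2 unit either way, a 2-fold difference, for 50 of 65 members at 100 µg/ml (82.9% of all genes) and for 44 of 65 at 250 µg/ml (80.7%). The median standard error of the members was 0.248 log2 units, against 0.169 over all genes. As 3 members lay below the median of all gene means, that background holds more dim genes. No background of like signal was set beside it. In the forest plot of changes the widest intervals are those of MRPL41 and MRPS17, and the narrowest belong to genes such as MRPL44 and MRPL52. Total RNA of a culture was measured, so fewer cells of a type and less RNA per cell cannot be told apart.

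**Figure D1:**
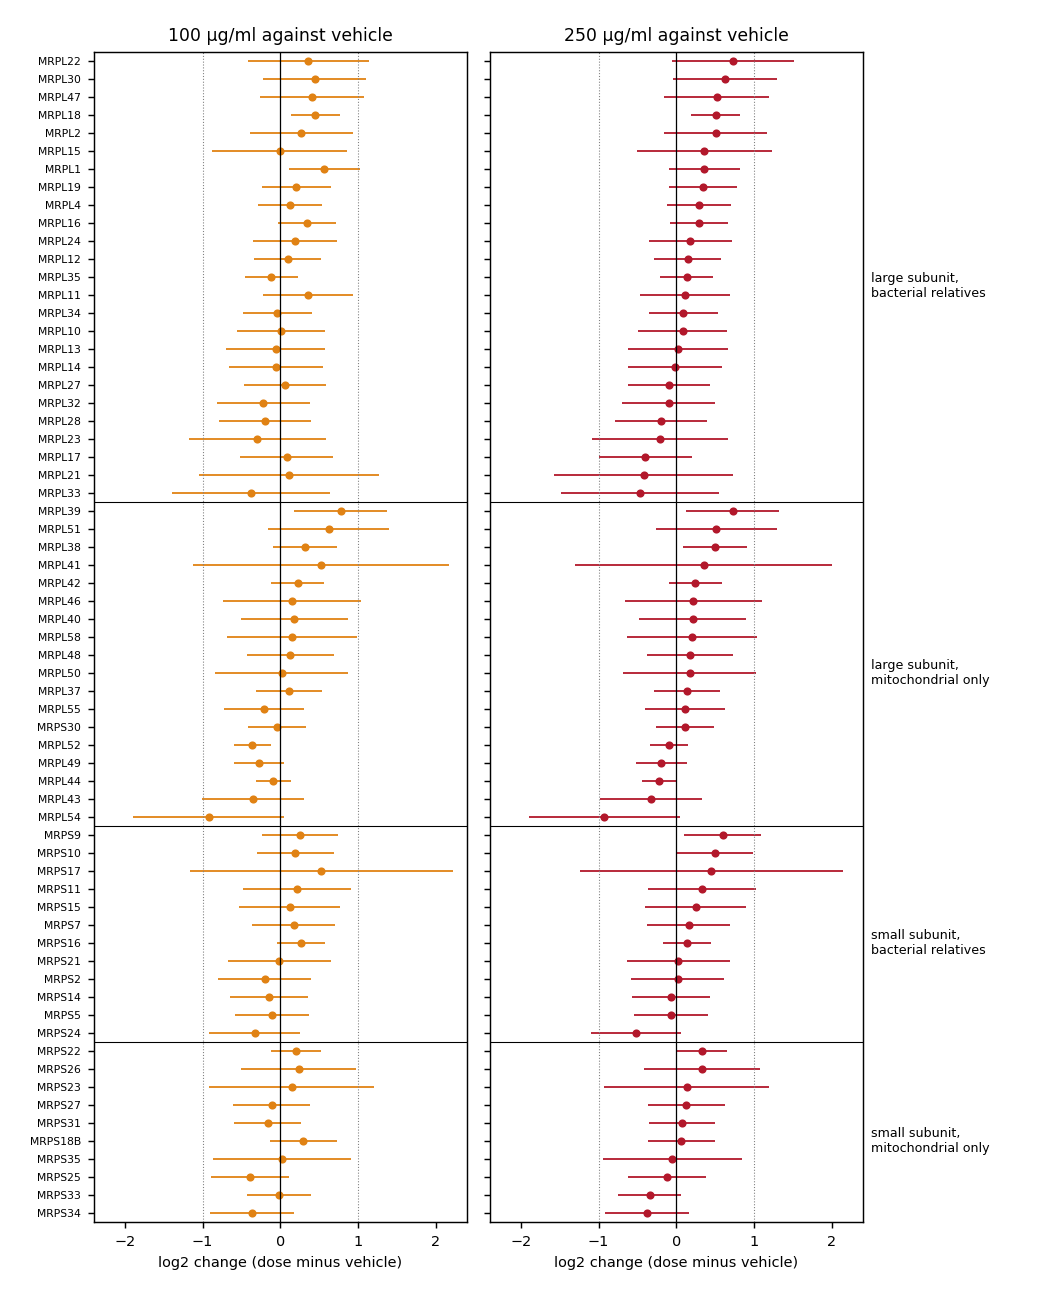
Change of each of the 65 genes at 100 µg/ml (left panel) and 250 µg/ml (right panel) against vehicle, in log2 units, as points with 95% confidence intervals from limma (3 arrays per group), ordered by the change at 250 µg/ml within each ribosomal class. Dotted lines mark 1 log2 unit either way. At 250 µg/ml 45 points lie right of 0, and 0 of 65 genes passed the adjusted test at either dose.

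The members varied most among the vehicle arrays, where 1 array was low. Vehicle replicate 1 was the lowest of all 9 arrays for 40 of 65 members (61.5%), against 17.5% of all genes. Related lists described below shared this, with 69.2% of translation factors, 61.9% of mitochondrial DNA expression genes and 46.7% of mitochondrial tRNA synthetases. For cytosolic ribosomal protein genes it was 36.0%, for assembly factors 33.3% and for regulators 0.0%. Within the vehicle group vehicle replicate 1 was lowest for 56 of 65 members (86.2%, against 41.0% of all genes). It lay below the mean of the other 2 vehicle arrays for 63 of 65 members, with a median difference of -0.60 log2 units, and by over 1 log2 unit for 18. The gap was widest for MRPL41 (-2.87), MRPS17 (-2.75), MRPS23 (-1.78), MRPL21 (-1.75) and MRPS35 (-1.63). The exceptions were MRPS9 and MRPL49, for which vehicle replicate 1 lay 0.27 and 0.42 log2 units above the mean of the other 2. MRPS23, MRPS35 and MRPL49, like others given only as extremes in this paragraph, were named after their values were seen.

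The median deviation of the members from their own means was -0.46 on vehicle replicate 1 and 0.18 and 0.15 on vehicle replicates 2 and 3. On the arrays of 100 µg/ml it was -0.13, 0.06 and 0.08, and on those of 250 µg/ml -0.12, 0.13 and 0.11. The array numbered 1 was thus the low one in each group. It was the lowest of its group for 40 of 65 members at 100 µg/ml (61.5%, against 28.8% of all genes) and for 47 of 65 at 250 µg/ml (72.3%, against 30.6%). Centring every array on its own median left vehicle replicate 1 at -0.36. The median SD of a member was 0.420 among vehicle arrays (0.211 over all genes), 0.207 at 100 µg/ml (0.177) and 0.227 at 250 µg/ml (0.155). The background of all genes again holds more dim genes than the members do.

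**Figure D2:**
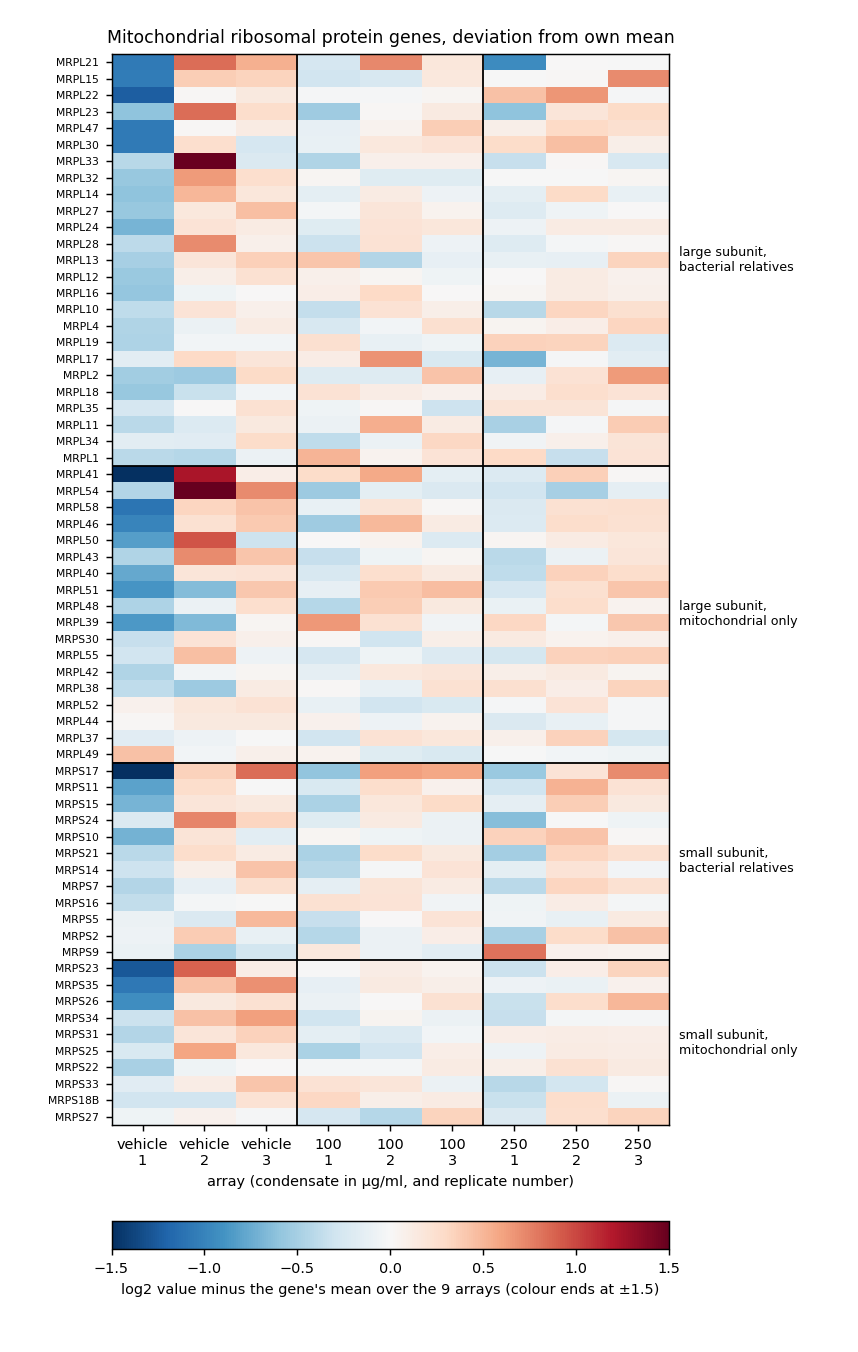
Deviation of each of the 65 genes from its own mean over the 9 arrays, in log2 units (blue below, red above, colours end at 1.5 either way), with arrays in columns by condensate dose and replicate number and genes in rows by ribosomal class. The column of vehicle replicate 1 is blue in nearly every row, with a median of -0.46.

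Both subunits were lowest on vehicle replicate 1. On vehicle replicate 1 the median deviation was -0.50 for the 43 large-subunit genes and -0.39 for the 22 small-subunit genes, and it was the lowest of its group for 38 of 43 and 18 of 22. The 25 measured cytosolic ribosomal protein genes, which encode the ribosome of the cytosol, stood at -0.37 on that array. The medians of the cytosolic genes and of the large mitochondrial subunit were 0.41 and 0.17 on vehicle replicate 2, -0.36 and -0.08 on replicate 1 of 250 µg/ml, and -0.03 and 0.12 on replicate 2 of that dose. Whether they differ on any array was not tested.

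**Figure D3:**
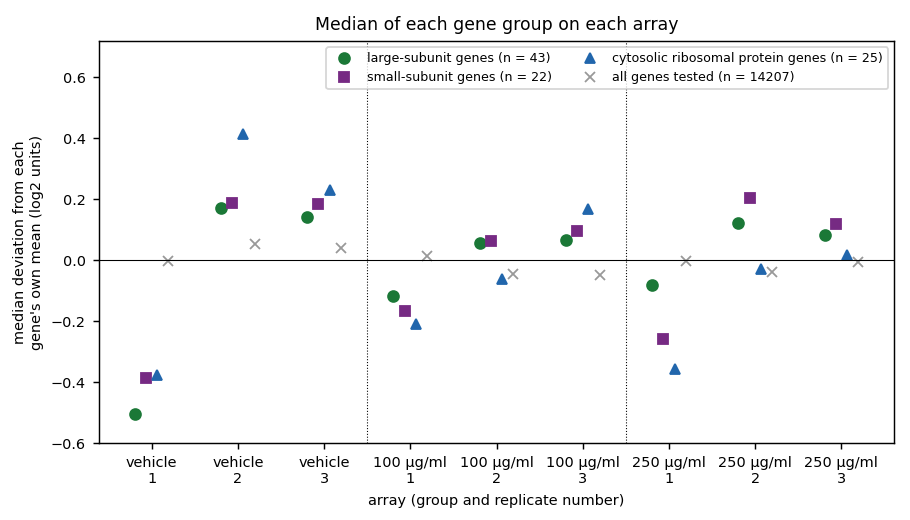
Median deviation from each gene's own mean, in log2 units, on each of the 9 arrays for large-subunit genes (n = 43, circles), small-subunit genes (n = 22, squares), cytosolic ribosomal protein genes (n = 25, triangles) and all genes tested (n = 14207, crosses). The 3 ribosomal groups lie below 0 on every array numbered 1, while all genes stay near 0.

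Leaving vehicle replicate 1 out turned the direction of the summary values. Since that array lay below the mean of the other 2 for 63 of 65 members, leaving it out must lower their changes. The downward shift is thus no separate result. Without it the median change of the members was -0.16 at 100 µg/ml (-0.07 over all genes) and -0.09 at 250 µg/ml (-0.06). Medians in the 4 classes of subunit and origin then ran between -0.28 and -0.11 at 100 µg/ml and between -0.24 and -0.05 at 250 µg/ml. Leaving out vehicle replicate 2 gave medians of 0.18 and 0.20 over all members, and leaving out vehicle replicate 3 gave 0.25 and 0.24. Without vehicle replicate 1 means were lower than in vehicle for 47 of 65 members at 100 µg/ml (60.6% of all genes) and for 43 of 65 at 250 µg/ml (59.8%). At an unadjusted p under 0.05, 9 of 65 members were lower at 100 µg/ml (9.61% of all genes) and 10 of 65 at 250 µg/ml (9.57%). Higher were 1 of 65 (5.98%) and 2 of 65 (7.57%). MRPL18 was the 1 at 100 µg/ml, and MRPL18 and MRPS9 were the 2 at 250 µg/ml. Lower and higher members together made up 15.4% and 18.5% of the members. By the adjusted p of limma 0 members passed at either dose without that array, where 0.00704% and 0.549% of all genes did. That removal kept the low arrays numbered 1 of both doses, so it was uneven. Without the arrays numbered 1 of all groups, chosen after seeing the data, the median was -0.07 at 100 µg/ml (-0.09 over all genes). At 250 µg/ml it was 0.01 (-0.07). Means were then higher than in vehicle for 27 and 33 of 65 members (36.8% and 39.0% of all genes).

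**Figure D4:**
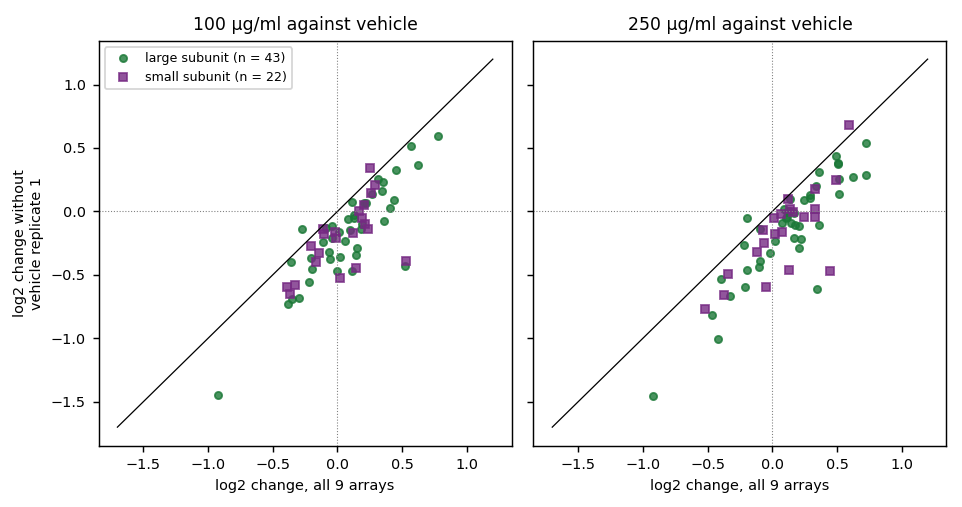
Change of each of the 65 genes against vehicle with all 9 arrays (horizontal axis) and without vehicle replicate 1 (vertical axis), in log2 units, at 100 µg/ml (left) and 250 µg/ml (right), with large-subunit genes as circles and small-subunit genes as squares. Solid lines mark equal values. 63 of 65 points lie below the line in each panel, and the medians are -0.16 and -0.09 without that array. These are the 63 members for which that array lay below the mean of the other 2 vehicle arrays, so their place below the line follows from that.

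Among large-subunit proteins with bacterial relatives, 16 of 25 genes had higher means at 100 µg/ml and 17 of 25 at 250 µg/ml, with median changes of 0.09 and 0.13. MRPL18, a protein of the central protuberance whose promoter stretch is printed above, read 7.56, 7.79 and 8.09 in vehicle cells, 8.35, 8.25 and 8.20 at 100 µg/ml, and 8.24, 8.38 and 8.34 at 250 µg/ml. Every treated array lay above every vehicle array. Its change was 0.45 ± 0.14 log2 units (SE, limma adjusted p = 0.227) at 100 µg/ml and 0.51 ± 0.14 (adjusted p = 0.137) at 250 µg/ml. Without vehicle replicate 3, its highest vehicle array, it rose by 0.64 ± 0.12 at 250 µg/ml (limma adjusted p = 0.0454, where 2.08% of all genes passed) and had a change of 0.59 at 100 µg/ml (adjusted p = 0.0846). It was the only member to pass in any of the alternatives run.

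MRPL1, which forms the mobile stalk beside the exit site of tRNA, read 5.52, 5.49 and 5.84 in vehicle cells, 6.44, 5.98 and 6.13 at 100 µg/ml, and 6.22, 5.58 and 6.13 at 250 µg/ml. The arrays of 100 µg/ml lay above all vehicle arrays, and replicate 2 at 250 µg/ml lay among them. Its change was 0.57 ± 0.20 at 100 µg/ml and 0.36 ± 0.20 at 250 µg/ml (limma adjusted p = 0.274 and 0.405). MRPL12, the stalk protein that contacts translation factors, read 6.93, 7.58 and 7.71 in vehicle cells and between 7.42 and 7.61 on all 6 treated arrays. Its changes were 0.09 and 0.15, with an SE of 0.19, and MRPL11 at the base of that stalk had changes of 0.35 and 0.12, with an SE of 0.25. The spread of MRPL12 was thus almost wholly that of 1 vehicle array.

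MRPL22, which lines the exit tunnel of the nascent chain, read 4.99, 6.24 and 6.37 in vehicle cells, 6.21, 6.21 and 6.26 at 100 µg/ml, and 6.66, 6.89 and 6.21 at 250 µg/ml. The groups overlapped at both doses, and the 3 arrays of 250 µg/ml had an SD of 0.35. The change at 250 µg/ml was 0.72 ± 0.34 with all arrays (limma adjusted p = 0.333) and 0.28 ± 0.19 without vehicle replicate 1 (adjusted p = 0.491). MRPL24, at the tunnel exit, had changes of 0.19 and 0.18 ± 0.24, and MRPL47, which stands beside it, 0.41 and 0.52 ± 0.29. MRPL30 had changes of 0.44 and 0.63 ± 0.29. The lowest of the class at 250 µg/ml were MRPL33 (-0.38 and -0.47 ± 0.44), MRPL21 (0.11 and -0.42 ± 0.50) and MRPL17 (0.08 and -0.40 ± 0.26). Adjusted p for these 6 genes lay between 0.323 and 0.941.

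Of the 18 large-subunit proteins listed as mitochondrial only, 11 had higher means at 100 µg/ml and 13 at 250 µg/ml, with median changes of 0.12 and 0.17. MRPL39 had the highest change of all members at both doses. It read 5.12, 5.32 and 6.01 in vehicle cells, 6.63, 6.21 and 5.93 at 100 µg/ml, and 6.29, 5.95 and 6.38 at 250 µg/ml. Replicate 3 in vehicle cells lay above 1 array of each dose, so the groups overlapped. Its change was 0.78 ± 0.26 at 100 µg/ml and 0.72 ± 0.26 at 250 µg/ml (limma adjusted p = 0.265 and 0.226).

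MRPL54 stood at the other end. It read 3.97, 5.99 and 5.11 in vehicle cells, 3.86, 4.26 and 4.19 at 100 µg/ml, and 4.12, 3.91 and 4.28 at 250 µg/ml. Vehicle replicate 1 lay among the treated arrays, and the other 2 vehicle arrays lay above all of them. The change was -0.92 ± 0.43 at both doses (limma adjusted p = 0.363 and 0.320). Without vehicle replicate 1 it was -1.45 ± 0.26 at both, and adjusted p was 0.119 at the lower and 0.0585 at the higher dose.

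MRPL52, whose promoter stretch holds 2 matches to AAGATGG, read 3.67, 3.77 and 3.82 in vehicle cells, 3.49, 3.32 and 3.37 at 100 µg/ml, and 3.58, 3.80 and 3.59 at 250 µg/ml. All arrays of 100 µg/ml were lowest, and those of 250 µg/ml overlapped vehicle. Its change was -0.36 ± 0.10 at 100 µg/ml and -0.10 ± 0.10 at 250 µg/ml (limma adjusted p = 0.219 and 0.670). It had the lowest mean signal of the members, and the submitters' background correction compresses differences at such levels.

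MRPL41 shows how 1 array sets a mean. It read 5.55, 8.98 and 7.86 in vehicle cells, 8.02, 8.32 and 7.60 at 100 µg/ml, and 7.54, 8.11 and 7.77 at 250 µg/ml. The treated arrays lie between the vehicle arrays, whose SD of 1.75 was the largest among the members. Its change was 0.52 ± 0.72 at 100 µg/ml and 0.35 ± 0.72 at 250 µg/ml with all arrays, and -0.43 and -0.61 without vehicle replicate 1, none of which passed. MRPL44, a protein with a ribonuclease III-like fold whose loss causes cardiomyopathy in people, varied little, with 6.07, 6.19 and 6.20 in vehicle cells, 6.11, 5.97 and 6.11 at 100 µg/ml, and 5.83, 5.94 and 6.03 at 250 µg/ml. All arrays of 250 µg/ml lay below vehicle, with a change of -0.22 ± 0.10 (limma adjusted p = 0.308). MRPL51 had changes of 0.62 and 0.51 ± 0.34, MRPL37 of 0.11 and 0.14 ± 0.18, and MRPS30 of -0.04 and 0.11 ± 0.16.

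**Figure D5:**
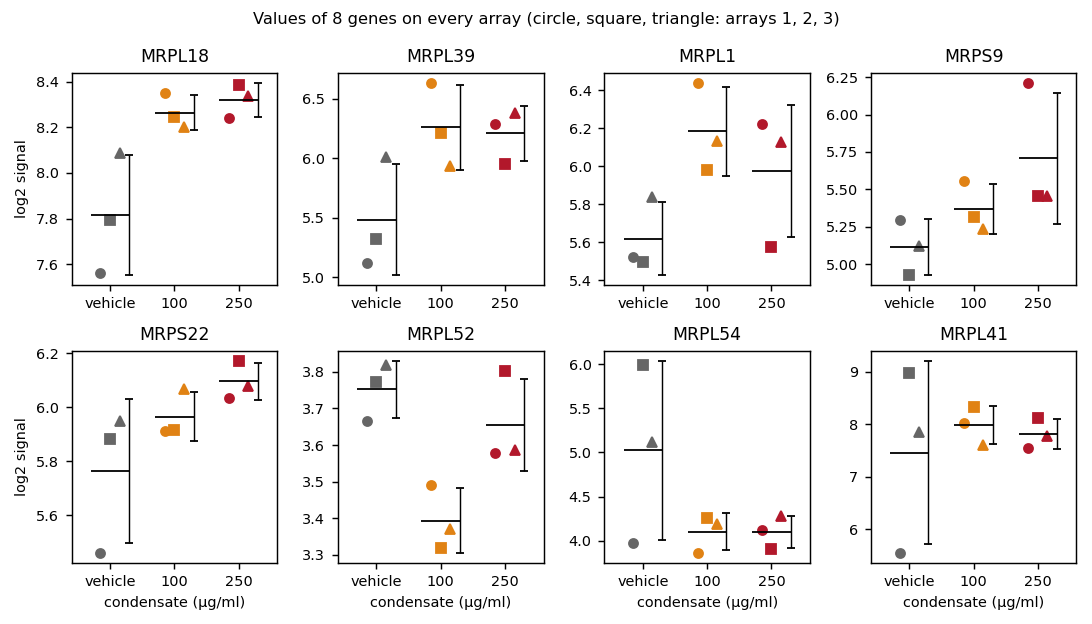
Log2 signal on every array for 8 genes, by condensate dose (vehicle, 100 and 250 µg/ml), with circles, squares and triangles for arrays numbered 1, 2 and 3, a bar at the group mean and whiskers of 1 SD (n = 3), each panel on its own scale. MRPL18 lies higher on all 6 treated arrays, and vehicle replicate 1 is far below the other arrays for MRPL41.

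In the small subunit, proteins with bacterial relatives had higher means for 7 of 12 genes at 100 µg/ml and 9 of 12 at 250 µg/ml, with median changes of 0.14 and 0.15. MRPS9, part of the head of the subunit, read 5.30, 4.93 and 5.12 in vehicle cells, 5.56, 5.31 and 5.24 at 100 µg/ml, and 6.21, 5.46 and 5.45 at 250 µg/ml. Arrays of 250 µg/ml lay above all vehicle arrays, and replicate 1 among them was far above the other 2. Its change was 0.25 ± 0.22 at 100 µg/ml and 0.59 ± 0.22 at 250 µg/ml (limma adjusted p = 0.606 and 0.228). Unlike most members it did not have its lowest reading on vehicle replicate 1, and the change without that array was 0.34 at 100 µg/ml and 0.68 at 250 µg/ml.

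MRPS17, which binds ribosomal RNA, read 4.45, 6.94 and 7.44 in vehicle cells, 6.01, 7.22 and 7.18 at 100 µg/ml, and 6.05, 6.81 and 7.31 at 250 µg/ml. Array 1 was lowest in every group, most so in vehicle cells. The change was 0.53 ± 0.74 at 100 µg/ml and 0.45 ± 0.74 at 250 µg/ml, and -0.39 and -0.47 without vehicle replicate 1. MRPS24, at the entry of the mRNA channel, had changes of -0.33 and -0.52 ± 0.26 (limma adjusted p = 0.571 and 0.346). Variants of MRPS2, MRPS7, MRPS14 and MRPS16 cause inherited mitochondrial disease. MRPS2 had changes of -0.20 and 0.01 ± 0.26, MRPS7 of 0.17 and 0.16 ± 0.23, MRPS14 of -0.14 and -0.06 ± 0.22, and MRPS16 of 0.26 and 0.14 ± 0.14. For these 4 genes adjusted p lay between 0.413 and 0.983.

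Of the 10 small-subunit proteins listed as mitochondrial only, 5 had higher means at 100 µg/ml and 6 at 250 µg/ml, with median changes of 0.00 and 0.07. MRPS22, another gene of inherited mitochondrial disease, read 5.46, 5.88 and 5.95 in vehicle cells, 5.91, 5.92 and 6.07 at 100 µg/ml, and 6.04, 6.17 and 6.08 at 250 µg/ml. The arrays of 250 µg/ml lay above vehicle, and those of 100 µg/ml overlapped it. Its change was 0.20 ± 0.14 and 0.33 ± 0.14 (limma adjusted p = 0.526 and 0.285), and 0.05 and 0.18 without vehicle replicate 1. MRPS34, mutated in some cases of Leigh syndrome, had changes of -0.37 and -0.38 ± 0.24. MRPS27, which carries pentatricopeptide repeats that bind RNA, had changes of -0.11 and 0.13 ± 0.22, and with an SD of 0.07 it was the steadiest member among the vehicle arrays. MRPS25 had changes of -0.39 and -0.12 ± 0.22.

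The third comparison set 250 µg/ml against 100 µg/ml, with the spread still taken from all 9 arrays. MRPL15, MRPL22, MRPS9, MRPL55 and MRPS10 had the highest changes, between 0.36 and 0.30 log2 units, and MRPL21, MRPL17, MRPS33, MRPL11 and MRPS18B the lowest, between -0.53 and -0.23. By the adjusted p of limma 0 members and 0.0% of all genes passed, and 1 member reached an unadjusted p under 0.05 (1.54%, against 1.84% of all genes). It was MRPL52, whose mean was 0.26 ± 0.10 higher at 250 µg/ml. With the replicate number as a block MRPL52 had an unadjusted p of 0.0527 in limma, and MRPS9 (higher, 0.0465) and MRPL17 (lower, 0.0415) came under 0.05, or 3.08% of members against 3.29% of all genes. Adjusted p was 1.00 for all 3 in that fit. Arrays did not overlap for MRPL52 and MRPS31, both higher at 250 µg/ml and named after their values were seen, which is 3.08% against 6.17% of all genes. MRPS31 read 5.16, 5.17 and 5.15 at 250 µg/ml and 4.91, 4.85 and 5.01 at 100 µg/ml, a change of 0.24 ± 0.19. That SE includes the spread among vehicle arrays, where its SD was 0.42, against 0.08 and 0.01 at 100 and 250 µg/ml. With array weights in limma 8 members were higher and 4 lower at an unadjusted p under 0.05. That is 18.5% of members, where 8.62% of all genes were higher and 7.4% lower, and 0 genes passed the adjusted p. In the main fit the interval lay within 1 log2 unit for 56 of 65 members (86.2%, against 91.4% of all genes), and 42 of 65 had a higher mean (64.6%, against 54.4%).

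Genes that work with the mitochondrial ribosome were read from the same fits, and 0 of them passed the adjusted p of limma in any of the 3 comparisons. Of 13 measured translation factors 12 had higher means at each dose, with median changes of 0.22 and 0.35. Highest was MTIF2, the initiation factor, with 0.60 and 0.77 ± 0.26 (limma adjusted p = 0.336 and 0.206), and lowest OXA1L, which inserts nascent chains into the inner membrane, with -0.17 and -0.14 ± 0.19. Vehicle replicate 1 was low here too, at a median of -0.42, and without it 8 and 11 of the 13 had higher means, with medians of 0.10 and 0.18. Of 15 mitochondrial tRNA synthetases and related enzymes 10 had higher means at each dose (medians 0.11 and 0.14, which were 0.03 and 0.19 without vehicle replicate 1, 0.30 and 0.36 without replicate 2, and 0.25 and 0.17 without replicate 3). At 250 µg/ml QRSL1, which completes the charging of glutamine tRNA, was highest at 0.94 ± 0.25 (adjusted p = 0.129), and WARS2, which charges tryptophan tRNA, lowest at -0.43 ± 0.23 (adjusted p = 0.382). At 100 µg/ml LARS2, the leucine enzyme, was highest at 0.62 ± 0.22 (adjusted p = 0.274).

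Among 21 measured factors of ribosome assembly 12 had higher means at each dose (as 40.8% and 42.7% of all genes did), with medians of 0.07 and 0.05. Without vehicle replicate 1 the direction turned, with 9 and 10 of 21 higher and medians of -0.09 and -0.03. FASTKD2 was highest at 100 µg/ml (0.61 ± 0.22) and ERAL1, an RNA chaperone of the small subunit, at 250 µg/ml (0.72 ± 0.21, limma adjusted p = 0.154). NOA1 (-0.32 ± 0.16) and DDX28 (-0.32 ± 0.18) were lowest at 100 and 250 µg/ml. The 21 genes of mitochondrial DNA expression had medians of 0.10 and 0.12, and of -0.01 and 0.04 without vehicle replicate 1. The tRNA-processing genes PRORP (0.69 ± 0.27 at 100 µg/ml) and ELAC2 (0.73 ± 0.25 at 250 µg/ml) were highest there. The helicase gene TWNK (-0.31 ± 0.16 at 100 µg/ml) and POLRMT, the RNA polymerase (-0.56 ± 0.20 at 250 µg/ml), were lowest. Of 6 regulators the coactivator gene PPARGC1A was lowest at 100 µg/ml (-0.60 ± 0.44) and MYC at 250 µg/ml (-0.42 ± 0.23), with list medians of -0.21 and -0.04, and of -0.07 and 0.03 without vehicle replicate 2. PPRC1, another coactivator gene, was highest at both, with 0.03 and 0.16 ± 0.30. The 3 measured ribosomal proteins with other symbols had medians of -0.10 and -0.07 (-0.30 and -0.27 without vehicle replicate 1, -0.03 and 0.18 without replicate 2, 0.01 and 0.07 without replicate 3), with DAP3 highest (0.04 and 0.15 ± 0.18) and CHCHD1 lowest (-0.37 and -0.15 ± 0.34).

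Cytosolic ribosomal protein genes had lower means for 20 of 25 at each dose, with medians of -0.08 and -0.15, and 0 passed by limma. Without vehicle replicate 1 these were 24 of 25 at each dose and -0.38 and -0.36. Without vehicle replicate 2, 9 and 12 of 25 were lower, with medians of 0.06 and 0.00, and without vehicle replicate 3 there were 15 and 17, with medians of -0.03 and -0.11. RPS6 (0.19 ± 0.29 at 100 µg/ml) and RPL27A (0.53 ± 0.26 at 250 µg/ml) were highest and RPS15A (-0.83 ± 0.95) and RPL35 (-1.27 ± 0.60) lowest at 100 and 250 µg/ml. Mitochondrial and cytosolic ribosomal protein genes thus had medians of opposite sign with all arrays and without vehicle replicate 3. Both were negative without vehicle replicate 1. Without vehicle replicate 2 both were positive at 100 µg/ml, and at 250 µg/ml the mitochondrial median was 0.20 and the cytosolic 0.00. Whether their changes differ was not tested.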

How the data were processed

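Total RNA of 9 samples was read on Affymetrix exon arrays. The deposited values are log2 signals per transcript-level probe set, made by the authors with RMA and Partek on build hg18, per the submitters' processing notes, whose versions and filters the sources used here do not give. Background subtraction in RMA compresses changes of dim genes, and its joint normalization removes differences in total signal. The number of arrays limits the precision.

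Of 17629 probe sets 14378 name 1 gene in the platform annotation, 2405 several and 846 none. The brightest of several was kept, giving 14207 genes, with each of the 65 members on 1 probe set. limma 3.58.1 in R 4.3.3 (lmFit, eBayes) was fitted to all 9 arrays with 1 mean per group and Benjamini-Hochberg adjustment at 0.05 over all genes. The fit was tested on simulated data. The members and lists were chosen with earlier results of these data known. Named in each comparison were the 5 highest and 5 lowest members, 14 measured members of fixed interest, and the highest and lowest gene of each list. Promoter windows came from RefSeq, GRCh38.p14, and no protein sequence was used. Same-numbered arrays of both doses deviated together (r of 0.60, 0.44 and 0.68), while those of dose and vehicle correlated between -0.14 and 0.26. The pairing of doses comes from the data, and a fit with a replicate block was an alternative. Other alternatives were median centring, quantile normalization, a filter on dim genes, array weights, a trend in the prior, only the arrays compared, other rules for several probe sets, and leaving out arrays.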

Additional observations from a re-analysis of the deposited data

How the results depend on the processing

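Counts of members past the adjusted p of limma stayed at 0 of 65 in all 20 alternatives at 100 µg/ml, in all 20 between the doses, and in 19 of 20 at 250 µg/ml. Without vehicle replicate 3 that count was 1 (MRPL18), where 2.08% of all genes passed. Between the doses, 0 of 14207 genes passed in the main fit, with the replicate block, median centring, quantile normalization or array weights. The same held after any single array was left out, and without all arrays numbered 1 or 3. In those fits a member count of 0 was fixed and tells nothing about the members. The main fit passed only 9 genes for the lower dose, so 0 members says little there. Leaving out all arrays numbered 3 raised this number of genes to 291. It was 1 without vehicle replicate 1, without replicate 1 or 2 of 100 µg/ml, or without any single array of 250 µg/ml. For the higher dose the main fit passed 78 genes, 0.549% of all, so 0 of 65 members says little there too. Without all arrays numbered 1, 0 genes passed at either dose, which again fixed the member count. The median change at 100 µg/ml was -0.161 without vehicle replicate 1, against 0.11 with all arrays. Over all alternatives the medians ran between -0.161 and 0.248 at 100 µg/ml, between -0.094 and 0.246 at 250 µg/ml and between -0.073 and 0.154 between the doses, and their extremes came from leaving out single arrays. With the replicate block the medians were 0.11, 0.13 and 0.06 and 0 members passed. Without all arrays numbered 1 (chosen after seeing the data) the medians at the doses were -0.07 and 0.01, against -0.09 and -0.07 over all genes. Without all arrays numbered 3, likewise chosen, they were 0.25 and 0.24, against -0.04 and -0.05. Among 69 changes of single members named by the rule, 23 changed sign in at least 1 alternative, and 0 passed the adjusted p in any. No detection calls were used, so a low signal leaves expression unknown.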

Other observations

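A further 19 probe sets name a mitochondrial ribosomal protein gene together with another gene, so their signal cannot be given to either. Fitted over all 17629 probe sets with limma, 0 of 19 passed an adjusted p of 0.05 in any comparison. At an unadjusted p under 0.05 there were 3 of 19 at 100 µg/ml (2 higher and 1 lower, 15.8% against 14.5% of all probe sets), 2 of 19 at 250 µg/ml (1 higher and 1 lower, 10.5% against 16.4%) and 0 between the doses (1.82% of all probe sets). The probe set of MRPL3, a core protein of the large subunit, and SNORA58, a small nucleolar RNA gene, was 0.63 ± 0.17 higher at 100 µg/ml and 0.58 ± 0.17 higher at 250 µg/ml (limma adjusted p = 0.214 and 0.165), with all treated arrays above vehicle. The probe set of SKA3, a kinetochore gene, and MRPL57 had changes of 1.49 ± 0.36 and 0.78 ± 0.36 (adjusted p = 0.200 and 0.326), and the one that names MRPL57 first had changes of 0.03 and 0.05 ± 0.21. The probe set of MRPS6, a small-subunit protein gene, and SLC5A3, a myo-inositol transporter gene, had changes of -0.86 ± 0.33 and -0.94 ± 0.33 (adjusted p = 0.298 and 0.222). That of MRPS28 and TPD52 had changes of 0.68 and 0.64 ± 0.31 (adjusted p = 0.365 and 0.345). Except for MRPL3, these were named after their values were seen. Arrays of 100 µg/ml also lay wholly above vehicle for the probe set of SKA3 and MRPL57. Those of 250 µg/ml lay wholly below vehicle for the probe sets of MRPS6 and SLC5A3 and of RSPH9 and MRPS18A. Among single genes arrays did not overlap for 18.3% at 100 µg/ml and 22.9% at 250 µg/ml.

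Of the 17 genes that face a member head to head, 11 were tested themselves, MRPS11 and MRPL46 among them. MRPS11 had changes of 0.21 and 0.33 ± 0.30 and MRPL46 of 0.15 and 0.22 ± 0.39. EME1, which faces MRPL27, had changes of 0.81 and 0.41 ± 0.36, while MRPL27 had 0.06 and -0.10 ± 0.23. PTCD2, which faces MRPS27 and takes part in mitochondrial RNA processing, had changes of 0.35 and 0.54 ± 0.24, while MRPS27 had -0.11 and 0.13. EME1 and PTCD2 had the largest rises among the tested partners. MITD1 had changes of -0.15 and 0.00, PSMA2 of 0.08 and 0.32, and ZNF189 of 0.17 and 0.16. For APBA3 they were -0.25 and 0.06, and for PPP1R10 -0.10 and 0.09. PIERCE1 had -0.10 and -0.09, and GGA3 -0.03 and 0.19. 0 of these passed the adjusted p of limma.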
